A study of Mus musculus with 48 samples.

Results

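The immediate early genes Fos, Fosb, Jun, Junb, Atf3, Egr1, Egr2, Nr4a1, Ier2 and Dusp1 were followed in O4+ oligodendrocyte lineage cells and CD11B+ microglia from mouse pups given interleukin-1 beta (IL1B) or saline. The 10 genes were taken by name: every array probe that was not a control and carried the symbol of a listed gene was a member. Each gene had 1 such probe, so the members were 10 of the 32053 gene names on the array and 10 of the 55681 probes tested, and all 10 were well above background on all 48 arrays, so that no member was lost to a filter on dim probes. The Fos probe was spotted 10 times on each array, and the SD of log2 intensity between those spots had a median of 0.04 over the arrays.

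Immediate early genes are transcribed within minutes of a stimulus without new protein synthesis. Extracellular signals reach them through the MAP kinases, which act on serum response factor with its Elk partners and on CREB, factors already bound at their promoters. Many of the proteins are transcription factors: Fos and Jun proteins pair to form AP-1, Atf3 is a stress-inducible bZIP repressor, Egr1 and Egr2 are zinc finger factors and Nr4a1 is an orphan nuclear receptor. Dusp1 is a phosphatase that switches the MAP kinases off again. Because tissue dissociation and warm enzyme digestion are themselves stimuli, these genes are also known as markers of the handling of isolated brain cells, microglia in particular.

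The male pups, of the Swiss strain per the labels and OF1 per the study's methods, received 10 ng/g recombinant mouse IL1B or phosphate-buffered saline (PBS) by intraperitoneal injection, 2 times a day from P1 to P4 and a last time at P5. No allele or transgene was involved. There were 8 groups of 6 samples: O4+ cells and CD11B+ cells, each at P5 and at P10, each after PBS or IL1B. P5 cells were taken 2 h after the last injection per the labels, a delay that the methods give as longer, whereas P10 cells were taken days after it. A sample pooled 3 brains without cerebellum and olfactory bulbs. These were dissociated with papain, and magnetic beads took the O4+ cells first and the CD11B+ cells from what was left. All groups went through this procedure and no undissociated tissue was measured, so induction during isolation cannot be told apart from levels in the brain, nor cell type from the position in the sort.

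Oligodendrocyte lineage markers were higher in O4+ than in CD11B+ PBS cells at P5 for 9 of 9 genes (median log2 difference 4.66) and microglial markers were lower for 10 of 10 (median -3.00). The 10 microglial markers were nevertheless well above background on every O4+ array. Their mean log2 level was 13.08 to 13.81 in O4+ cells at P5 after PBS, 14.60 to 15.02 at P5 after IL1B, 12.06 to 12.87 at P10 after PBS and 12.55 to 13.26 at P10 after IL1B, against 16.21 to 16.80 in the CD11B+ groups. In these bulk samples, fewer cells of a type and less RNA per cell cannot be told apart. Arrays of a group correlated at 0.958 to 0.9947, 52.9% to 65.4% of probes were above background per array, and no spot was saturated.

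Promoter sequence was examined for motifs through which these genes are known to be induced. RefSeq promoter windows of 300 bases (GRCm38.p6, mostly upstream of the start site) were at hand for 8 of the 10 genes and not for Egr1 and Ier2. The CArG box, which binds serum response factor, was matched in Egr2 and in no other of the 8. It occurs in 1.63% of the 32851 promoter windows searched. Egr2 had matches at different start sites, the first lying within chr10:67537484-67537513 and the second within chr10:67537787-67537816, both on the plus strand and both from base -72 to -63 of a start site. The cyclic AMP response element TGACGTCA, the site of CREB and the ATF proteins, was found in Dusp1 alone, at bases -143 to -136 on the minus strand within chr17:26508597-26508626. It occurs in 1.79% of windows. The AP-1 sites TGACTCA and TGAGTCA, each the reverse complement of the other, were found in none of the 8 and occur in 5.2% of windows. Both strands were searched for exact letters, and absence from a window says only that the letters are not there. The sites follow 5′ to 3′ on the gene's strand, with the motif in capitals, since these are the member promoters in which an inducible element was matched.
Egr2 first CArG box: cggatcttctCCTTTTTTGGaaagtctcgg
Egr2 second CArG box: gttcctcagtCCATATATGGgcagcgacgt
Dusp1 cyclic AMP response element: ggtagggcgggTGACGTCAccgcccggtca

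All 10 genes were most abundant in CD11B+ cells and least abundant in O4+ cells at P10 after PBS. For each of the 10, every CD11B+ array lay above every O4+ array (levels normalised over all 48 arrays), and the narrowest such gap was 0.35 on the log2 scale. Among the 4 O4+ groups the order of means was the same for all 10 genes, from P10 PBS through P10 IL1B and P5 PBS to P5 IL1B. Neighbours in that order did not overlap in 22 of 30 cases. The share of all probes separated in these ways is not given, so the counts describe these genes alone. The CD11B+ groups lay close together: neighbouring groups overlapped in 28 of 30 cases, and the 4 group means of a gene spanned 0.17 (Fos) to 1.14 (Egr2), against 1.03 (Jun) to 3.83 (Atf3) over the O4+ groups.

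**Figure D1:**
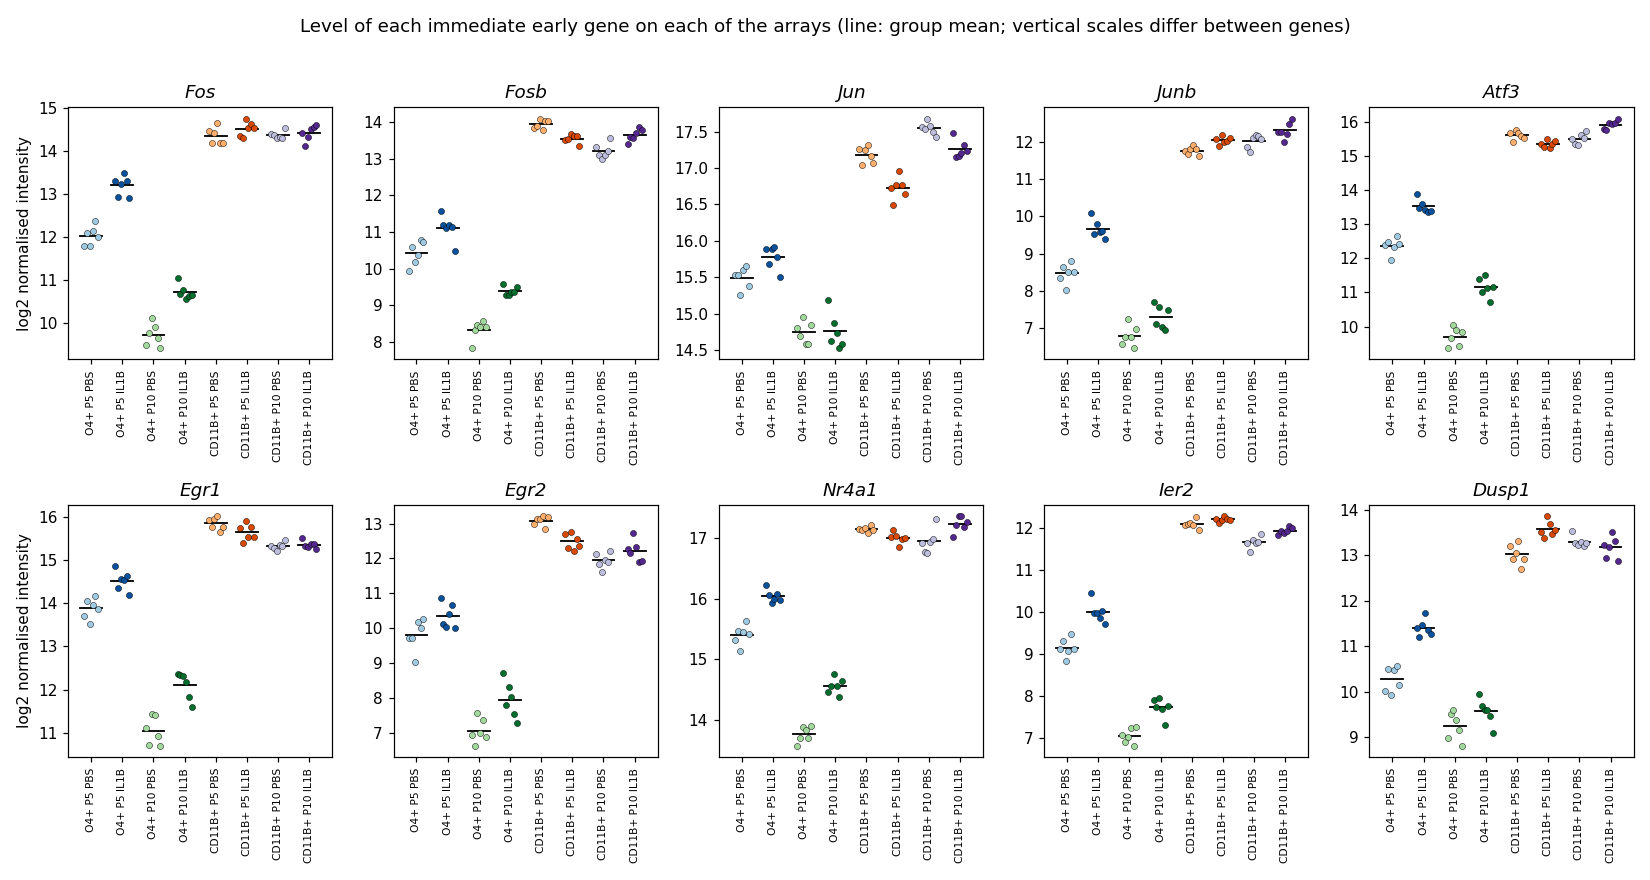
Log2 normalised intensity of each of the 10 genes (vertical axes, which differ in scale between genes) on each of the 48 arrays, in 8 groups of 6; points are arrays and lines are group means. For every gene the CD11B+ points lie above all O4+ points, and O4+ P10 PBS is the lowest group.

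Fos illustrates the pattern. Its probe lies at chr12:86817900-86817959 (mm9, plus strand). Its mean log2 level was 9.72 ± 0.26 (SD, n = 6) in O4+ cells at P10 after PBS and 10.71 ± 0.18 after IL1B. At P5 it was 12.03 ± 0.22 after PBS and 13.20 ± 0.23 after IL1B. These O4+ groups did not overlap. In CD11B+ cells the 4 group means were 14.35, 14.52, 14.38 and 14.43 with SDs of 0.09 to 0.19, and all of them overlapped. Atf3 (probe at chr1:192994547-192994606, mm9, minus strand) had the widest span over the 8 groups, 6.21, from 9.70 ± 0.26 in O4+ cells at P10 after PBS to 15.92 ± 0.13 in CD11B+ cells at P10 after IL1B. Jun, the AP-1 partner of the Fos proteins, had the narrowest, 2.81.

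The first question was whether IL1B changed these genes in O4+ cells at P5, within hours of the last injection. Of the 10 genes, 7 rose with IL1B and none fell, where 3.44% of all probes rose and 1.49% fell. A gene was called where limma gave a Benjamini-Hochberg adjusted p below 0.05 over all probes and the group medians differed by more than 1.5-fold. The genes that rose were Fos, Fosb, Junb, Atf3, Egr1, Ier2 and Dusp1, and the median log2 difference over all 10 was 0.72, against -0.04 over all probes. Levels in the comparisons of treatment and age were normalised over the 24 arrays of a cell type.

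Among the AP-1 proteins, Fos had log2 levels of 11.82 to 12.38 (median 12.09) on the PBS arrays and 12.91 to 13.49 (median 13.25) on the IL1B arrays. The groups were fully apart, with a log2 difference of 1.12 (SE 0.12, limma adjusted p = 0.000104). Junb (probe at chr8:87501881-87501940, mm9, minus strand), an AP-1 member that restrains Jun, had levels of 8.27 to 9.01 (median 8.73) after PBS and 9.59 to 10.23 (median 9.78) after IL1B. Again no array overlapped, and the log2 difference was 1.14 (SE 0.13, adjusted p = 0.000176). Atf3 ranged from 12.01 to 12.65 (median 12.42) after PBS and from 13.36 to 13.88 (median 13.44) after IL1B, a log2 difference of 1.12 (SE 0.11, adjusted p = 6.75e-05). Their group medians differed by 2.24-fold, 2.06-fold and 2.02-fold. Fosb rose less and with overlap: levels of 10.11 to 10.88 (median 10.60) became 10.59 to 11.62 (median 11.23), with 5 of 6 IL1B arrays above every PBS array and a log2 difference of 0.64 (SE 0.17, adjusted p = 0.0263). Jun differed by only 0.26 (SE 0.08, adjusted p = 0.0445), a 1.22-fold difference of medians that was not called.

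Among the remaining factors, Egr1, a growth factor-induced regulator, had levels of 13.51 to 14.12 (median 13.90) after PBS and 14.16 to 14.78 (median 14.50) after IL1B. The groups did not overlap, but the log2 difference of 0.62 (SE 0.12, adjusted p = 0.00481) corresponded to a 1.53-fold difference of medians, just past the fold threshold. Nr4a1 (probe at chr15:101105071-101105130, mm9, plus strand) fell just short of it: levels of 15.03 to 15.50 (median 15.31) became 15.77 to 16.05 (median 15.87), fully apart, with a log2 difference of 0.60 (SE 0.07, adjusted p = 0.000256) and a 1.48-fold difference of medians. Egr2 differed by 0.50 (SE 0.21, adjusted p = 0.127) and its arrays overlapped. The early response gene Ier2 (probe at chr8:87186214-87186273, mm9, minus strand) had levels of 9.04 to 9.67 (median 9.32) after PBS and 9.87 to 10.57 (median 10.12) after IL1B. Its arrays did not overlap and its log2 difference was 0.79 (SE 0.12, adjusted p = 0.00116). For the phosphatase Dusp1, levels of 10.10 to 10.69 (median 10.45) stood against 11.28 to 11.78 (median 11.45), also without overlap, a log2 difference of 1.06 (SE 0.12, adjusted p = 0.000149).

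Markers of other cells moved in the same comparison. Of the 10 microglial markers, 9 rose in O4+ cells at P5 with IL1B, by a median log2 difference of 1.26 over the list and a range of 0.47 (P2ry12) to 1.79 (C1qb). All 6 neutrophil markers rose, with a mean log2 level of 3.23 to 4.05 on the PBS arrays, where 3 of the 6 were not well above background on any array, and of 6.03 to 10.35 on the IL1B arrays. Of 5 endothelial markers, 3 fell (median -0.80), while none of the 9 oligodendrocyte lineage markers was called by limma with the fold threshold (6 had an unadjusted p below 0.05). The part of these cells in the rise of the immediate early genes was not tested. Within the slides that held arrays of both treatments, all 10 genes were higher with IL1B: by 0.09 to 0.99 on the slide with 4 PBS arrays and 1 IL1B array, and by 0.53 to 1.73 on the slide with 2 and 1. With slide as a block 5 genes were called, Fosb (0.87, adjusted p = 0.0629) and Egr1 (0.70, adjusted p = 0.0503) no longer passing. Leaving out PBS replicate 1, 3 or 4 or IL1B replicate 1, 2 or 4 also ended the call of Fosb (0.55 to 0.62), and leaving out PBS replicate 1, 3 or 6 that of Egr1 (0.55 to 0.61), whereas without IL1B replicate 3, 4 or 6 Nr4a1 was called (0.61 to 0.62), as it was on 75th percentile scaling (0.69). Fosb was also not called with normexp background (0.59), scan day as a block (adjusted p = 0.0714) or the deposited matrix (0.52), nor Egr1 with the deposited matrix (0.53).

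**Figure D2:**
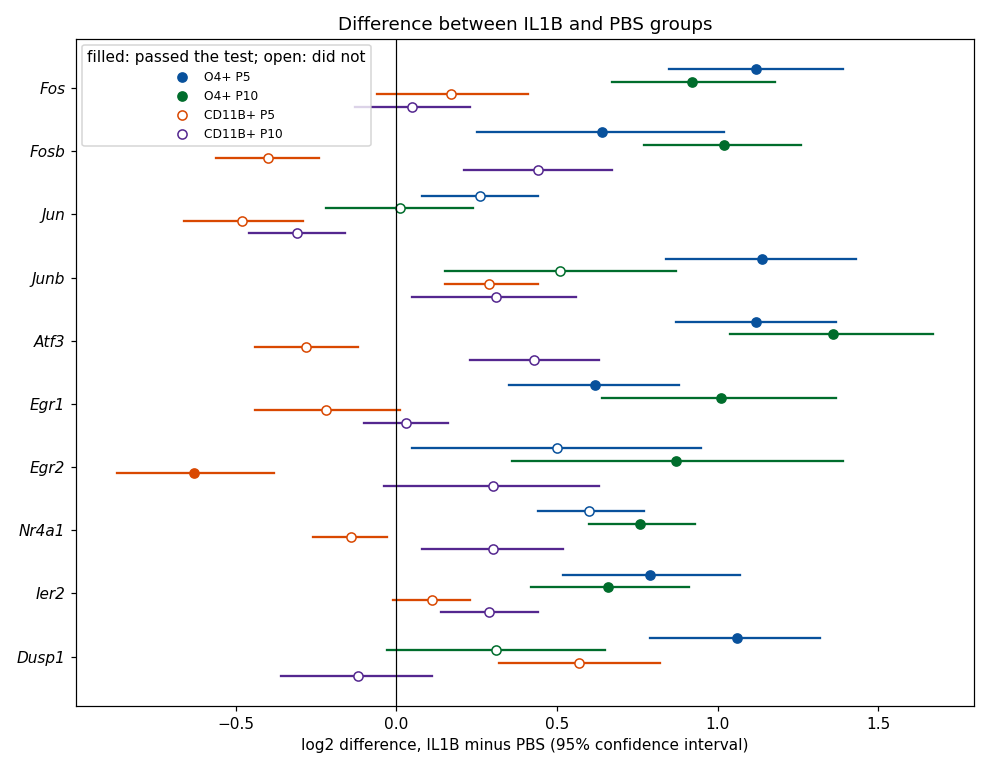
Log2 difference between IL1B and PBS groups (horizontal axis, points, with 95% confidence intervals as lines) for each of the 10 genes in O4+ and CD11B+ cells at P5 and P10, 6 arrays a group; filled points passed the test and the 1.5-fold threshold. In O4+ cells 7 of 10 points are filled at either age, all to the right of 0; in CD11B+ cells Egr2 at P5 is the only filled point, at -0.63.

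The second question was whether a difference was present at P10, days after the last injection. Again 7 of the 10 genes were higher after IL1B in O4+ cells and none was lower, where 2.49% of all probes were higher and 1.41% lower. The median log2 difference over the 10 genes was 0.82, against -0.02 over all probes. The called genes were Fos, Fosb, Atf3, Egr1, Egr2, Ier2 and Nr4a1.

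Atf3 differed most, with levels of 9.56 to 10.18 (median 9.93) after PBS and 10.83 to 11.58 (median 11.22) after IL1B. No arrays overlapped, and the log2 difference was 1.36 (SE 0.14, adjusted p = 0.000918). Fosb levels were 8.09 to 8.80 (median 8.65) after PBS and 9.47 to 9.78 (median 9.56) after IL1B, fully apart by 1.02 (SE 0.11, adjusted p = 0.00114). Egr1 levels were 10.81 to 11.50 (median 11.11) and 11.67 to 12.40 (median 12.28), also fully apart, with a log2 difference of 1.01 (SE 0.17, adjusted p = 0.00507) and a 2.26-fold difference of medians. Fos, Ier2 and Nr4a1 were likewise without overlap, with log2 differences of 0.92 (SE 0.12), 0.66 (SE 0.11) and 0.76 (SE 0.08). Egr2 (probe at chr10:67004798-67004857, mm9, plus strand) had levels of 6.91 to 7.83 (median 7.23) after PBS and 7.56 to 8.94 (median 8.17) after IL1B, overlapping, with a log2 difference of 0.87 (SE 0.23, adjusted p = 0.0368). Junb (0.51, SE 0.17), Dusp1 (0.31, SE 0.16) and Jun (0.01, SE 0.11) were not called, at adjusted p of 0.0747, 0.266 and 0.957.

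The microglial list again moved with the members: 6 of 10 were higher after IL1B at P10, with a median of 0.64 and a highest value of 0.76 (Trem2). Of 6 neutrophil markers 5 were higher, with a mean log2 level of 2.52 to 4.18 on the PBS arrays and 4.53 to 6.10 on the IL1B arrays; Ngp, Ltf and Mmp8 were not well above background on any PBS array, nor Mmp8 on any IL1B array. Of 5 astrocyte markers 3 were higher (median 0.57). Of the 9 oligodendrocyte lineage markers, those of progenitors, Pdgfra (0.94, SE 0.17, adjusted p = 0.00668) and Cspg4 (0.76, SE 0.19, adjusted p = 0.0286), were called higher after IL1B. None was called lower (median 0.01). Short of the fold threshold, the myelin genes Mag (-0.43, limma adjusted p = 0.0404) and Cnp (-0.38, adjusted p = 0.0275) were lower. Olig2 (0.34, adjusted p = 0.0193) was higher, also short of it. The part of all these markers in the result was not tested. On the slide with 5 PBS arrays and 2 IL1B arrays all 10 genes were higher with IL1B, by 0.17 to 1.43. On the slide with 1 of each, 9 of 10 were, with values of -0.24 (Jun) to 1.22 (Atf3). With slide as a block 6 genes were called, Egr2 (0.94, adjusted p = 0.0718) no longer passing, and leaving out PBS replicate 1, 2, 4 or 6 or IL1B replicate 1, 2, 3 or 4 also ended the call of Egr2 (0.72 to 0.90), as did the methods' equal-variance test (adjusted p = 0.0524). Nr4a1 fell short of the fold threshold on 75th percentile scaling (0.51) and in the deposited matrix (0.53), and Ier2 with normexp background (0.48).

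The difference between the ages was tested itself, as an interaction. In O4+ cells Dusp1 was the 1 gene past the threshold for a different response at P10 than at P5, its response being lower by 0.75 (SE 0.20, limma adjusted p = 0.0158), where 5.32% of probes had a lower and 7.83% a higher response at P10. For the other 9 genes the P10 minus P5 difference ranged from -0.63 (Junb, SE 0.22, adjusted p = 0.0592) to 0.39 (Egr1, SE 0.21, adjusted p = 0.265). That Egr2 and Nr4a1 were called only at P10 and Junb only at P5 therefore does not show that their responses differed with age. With slide as a block the difference for Dusp1 was -0.57 (adjusted p = 0.136) and no member was called, while Junb passed (-0.71 to -0.67) without P5 PBS replicate 5, P5 IL1B replicate 6, P10 PBS replicate 1 or 5 or P10 IL1B replicate 1 or 3. In the deposited matrix Dusp1 did not pass (-0.61, adjusted p = 0.0571) and Jun did (-0.49, adjusted p = 0.0321), as Jun also did on 75th percentile scaling (-0.60, adjusted p = 0.00781), and Junb passed with normexp background (-0.68) or only probes above background (-0.63). For the microglial list, 7 of 10 genes had a lower response at P10.

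In CD11B+ cells the same treatment gave few calls among the 10 genes, a count near the share of all probes. At P5 Egr2 fell and no other member was called, where 4.06% of all probes rose and 5.25% fell, and the median over the 10 genes was -0.18, against -0.01 over all probes (0.04 and 0.11 with scaling to the 75th percentile, which also called Dusp1 at 0.64). Egr2 levels were 12.85 to 13.23 (median 13.15) after PBS and 12.19 to 12.76 (median 12.45) after IL1B. No arrays overlapped, and the log2 difference was -0.63 (SE 0.11, adjusted p = 0.00168). Jun (-0.48, SE 0.08, adjusted p = 0.00158) and Fosb (-0.40, SE 0.07, adjusted p = 0.00175) were also fully below their PBS arrays but differed by 1.40-fold and 1.31-fold, short of the fold threshold. In the opposite direction, Dusp1 levels were 12.68 to 13.33 (median 13.00) after PBS and 13.40 to 13.88 (median 13.55) after IL1B, fully apart by 0.57 (SE 0.12, adjusted p = 0.00398), a 1.46-fold difference of medians, and it was called (0.58 to 0.63) without PBS replicate 1, 3 or 4. In these samples all 6 neutrophil markers rose (median 4.39), 3 of 5 endothelial markers fell (median -0.88) and 1 of 10 microglial markers fell, and their part was not tested.

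At P10 none of the 10 genes was called in CD11B+ cells, where 1.09% of probes were higher and 1.08% lower, and their median was 0.29, against 0 over all probes. The largest differences were those of Fosb (0.44, SE 0.11, adjusted p = 0.0359) and Atf3 (0.43, SE 0.09, adjusted p = 0.0239), at 1.40-fold and 1.38-fold. Atf3 arrays did not overlap, at 15.42 to 15.88 after PBS and 15.89 to 16.26 after IL1B. Jun was lower by 0.31 (SE 0.07, adjusted p = 0.0278) and Ier2 higher by 0.29 (SE 0.07, adjusted p = 0.0343). In this comparison 4 of the 10 genes had a limma adjusted p below 0.05 and 6 an unadjusted p below 0.05, all short of the fold threshold, and the methods' equal-variance test also called 0. The shares of all probes without the fold threshold are not given.

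The responses of CD11B+ cells did differ between the ages. For Fosb (0.84, SE 0.13), Egr2 (0.93, SE 0.19), Atf3 (0.71, SE 0.12) and Nr4a1 (0.45, SE 0.12) the response was higher at P10 than at P5, with limma adjusted p of 8.05e-05, 0.00153, 0.000154 and 0.00899. For Dusp1 it was lower by 0.69 (SE 0.16, adjusted p = 0.00402), as in O4+ cells. These are 4 genes higher and 1 lower, where 10.5% of probes were higher and 6.30% lower. With slide as a block Egr2 alone passed, the values of the other called genes being 0.74 for Fosb (adjusted p = 0.0615), 0.49 for Atf3 (0.183), 0.21 for Nr4a1 (0.722) and -0.62 for Dusp1 (0.186). Nr4a1 also did not pass on 75th percentile scaling (0.34, adjusted p = 0.165) or in the deposited matrix (0.57, adjusted p = 0.0575), nor Dusp1 in the deposited matrix (-0.46, adjusted p = 0.106), and Egr1 passed with scan day as a block (0.41, adjusted p = 0.0126).

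The responses of the 2 cell types were then set against each other. At P5 the IL1B response was higher in O4+ than in CD11B+ cells for all 10 genes, where it was higher for 6.93% of all probes and lower for 3.78%. The difference of responses ranged from 0.57 for Dusp1 (SE 0.18, limma adjusted p = 0.0396) to 1.42 for Atf3 (SE 0.14, adjusted p = 3.73e-07). At P10 it was higher for 5 genes, Fos (0.95, SE 0.15), Fosb (0.63, SE 0.16), Egr1 (1.03, SE 0.19), Atf3 (1.05, SE 0.18) and Nr4a1 (0.51, SE 0.13), where 3.92% of probes were higher and 3.65% lower. Jun, Junb, Egr2, Ier2 and Dusp1 had differences of 0.22 to 0.60 that did not pass the test. With slide as a block, 7 of the 10 genes passed at P5, without Fos (0.81, adjusted p = 0.145), Jun (0.69, adjusted p = 0.0721) and Dusp1 (0.43, adjusted p = 0.53), and the call of Dusp1 ended (0.50 to 0.57) without O4+ PBS replicate 1, 3 or 6, O4+ IL1B replicate 1, 3, 4 or 5, CD11B+ PBS replicate 1, 3 or 4, or CD11B+ IL1B replicate 1, 2, 5 or 6, and likewise on 75th percentile scaling (0.38), with normexp background (0.47) and in the deposited matrix (0.47). At P10 Nr4a1 did not pass on 75th percentile scaling (0.10, adjusted p = 0.711) or in the deposited matrix (0.06, adjusted p = 0.854), nor Fosb in the latter (0.48, adjusted p = 0.0508). Ier2 passed with only probes above background (0.40) or scan day as a block (0.42), and without O4+ IL1B replicate 5 or CD11B+ PBS replicate 2 (0.44 to 0.48). All 10 microglial markers also responded more in O4+ than in CD11B+ samples at P5 (median 1.38), and 5 of 10 at P10 (median 0.60); their part was not tested.

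The change with age was then examined in the PBS groups. In O4+ cells all 10 genes fell from P5 to P10, where 8.97% of all probes fell and 7.87% rose, with a median of -2.01 for the genes and 0.02 for all probes; with scaling to the 75th percentile or the deposited matrix 9 were called, Jun at -0.26 falling short. For each gene, all 6 arrays at P10 lay below all 6 at P5, and the share of all probes so separated is not given. These comparisons use the same PBS arrays as those of treatment. P5 PBS cells were taken within hours of an injection and P10 PBS cells days after it. Age and time since injection therefore cannot be told apart in either cell type.

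The Egr genes fell most. Egr1 levels were 13.51 to 14.12 (median 13.90) at P5 and 10.81 to 11.50 (median 11.11) at P10, and the log2 difference was -2.72 (SE 0.15, limma adjusted p = 1.20e-07), a 6.91-fold difference of medians. Egr2 levels were 9.25 to 10.40 (median 10.03) at P5 and 6.91 to 7.83 (median 7.23) at P10, a log2 difference of -2.65 (SE 0.21, adjusted p = 1.86e-06). Atf3 followed with -2.51 (SE 0.13), Fos with -2.17 (SE 0.13), Ier2 with -2.04 (SE 0.11) and Fosb with -1.98 (SE 0.15). Junb (-1.64, SE 0.15) and Nr4a1 (-1.54, SE 0.08) fell less. Dusp1 fell by 0.97 (SE 0.15) and Jun by 0.69 (SE 0.08), with levels of 15.15 to 15.52 (median 15.40) at P5 and 14.53 to 14.88 (median 14.69) at P10 for Jun. The microglial markers fell too, 9 of 10 with a median of -1.28 and a lowest value of -1.60 (Trem2). Of the oligodendrocyte lineage markers, Pdgfra (-1.35) and Cspg4 (-1.15) fell, and genes that rose included Cnp (1.70) and Mag (2.81). The part of these markers was not tested. No slide and no scan day held PBS arrays of both ages of a cell type. Age therefore cannot be told apart from slide or scan day, and values of the ages within a slide cannot be given.

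In CD11B+ PBS cells 2 of the 10 genes fell from P5 to P10 and none rose, where 3.62% of probes fell and 4.65% rose, and the median was -0.16. Egr2 levels were 12.85 to 13.23 (median 13.15) at P5 and 11.55 to 12.18 (median 11.88) at P10, a log2 difference of -1.20 (SE 0.11, adjusted p = 2.52e-05). Fosb fell by 0.74 (SE 0.09, adjusted p = 0.000223), and neither gene had overlapping arrays. Egr1 (-0.56, SE 0.07) and Ier2 (-0.46, SE 0.07) were fully below their P5 arrays, and Jun (0.40, SE 0.07) fully above, at differences of medians of 1.49-fold, 1.36-fold and 1.31-fold, which were not called; Egr1 was called without P5 replicate 2, 5 or 6 (-0.60 to -0.57), on 75th percentile scaling (-0.65) and in the deposited matrix (-0.61). Fos was level, at 14.22 to 14.71 and 14.35 to 14.58, a log2 difference of 0.02 with a 95% confidence interval of -0.17 to 0.22.

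**Figure D3:**
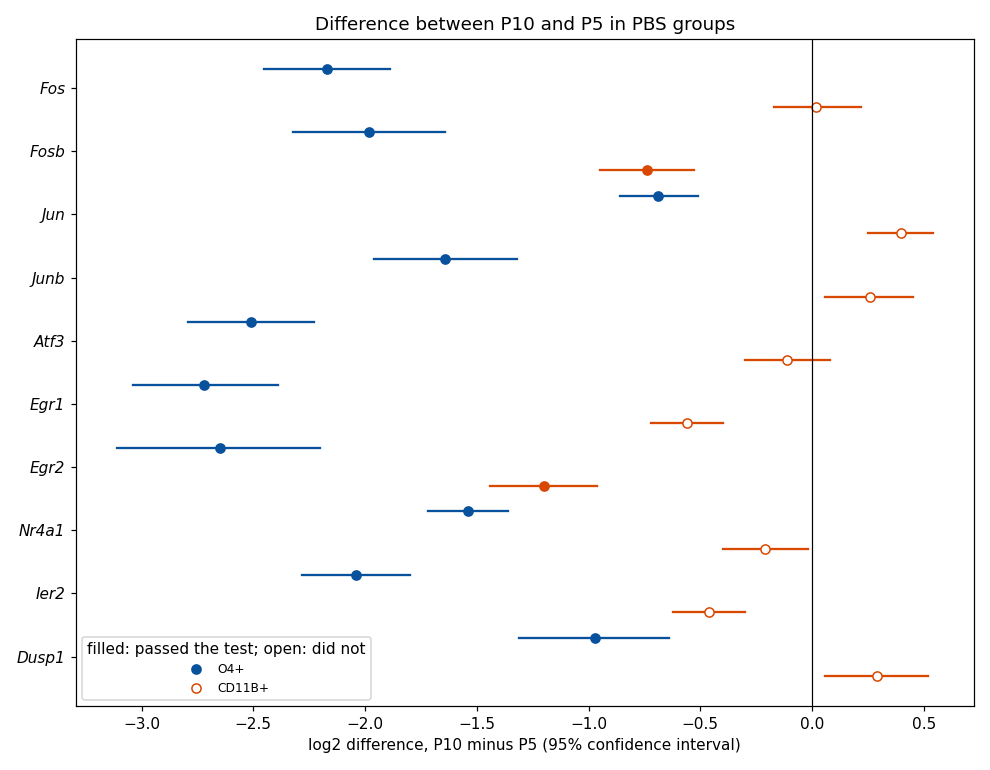
Log2 difference between P10 and P5 in the PBS groups (horizontal axis, points, with 95% confidence intervals as lines) for each of the 10 genes, 6 arrays a group; filled points passed the test and the 1.5-fold threshold. All 10 O4+ points are filled and lie between -2.72 and -0.69, whereas in CD11B+ cells only Fosb and Egr2 are filled.

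Between the cell types, all 10 genes were lower in O4+ than in CD11B+ PBS cells at P5, where 21.8% of probes were lower and 19.8% higher, and all 10 again at P10, where 20.2% were lower and 22.2% higher. The median over the genes was -2.84 at P5 and -4.63 at P10. At P5 the log2 differences ran from -1.69 (Jun, SE 0.08) to -3.51 (Fosb, SE 0.14). At P10 they ran from -2.81 (Jun, SE 0.07) to -5.81 (Atf3, SE 0.12), and Atf3 levels were 15.31 to 15.74 in CD11B+ cells and 9.37 to 10.03 in O4+ cells, a 54.6-fold difference of medians (limma adjusted p = 5.39e-12). On the slide that held 1 CD11B+ and 2 O4+ PBS arrays of P5, all 10 genes were lower in O4+ cells, by -3.57 to -1.75 on the log2 scale. At P10 the PBS arrays of the cell types shared no slide, so cell type and slide cannot be told apart there. The microglial markers differed by a median of -3.00 at P5 and -4.62 at P10, close in size to the members, and their part was not tested.

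**Figure D4:**
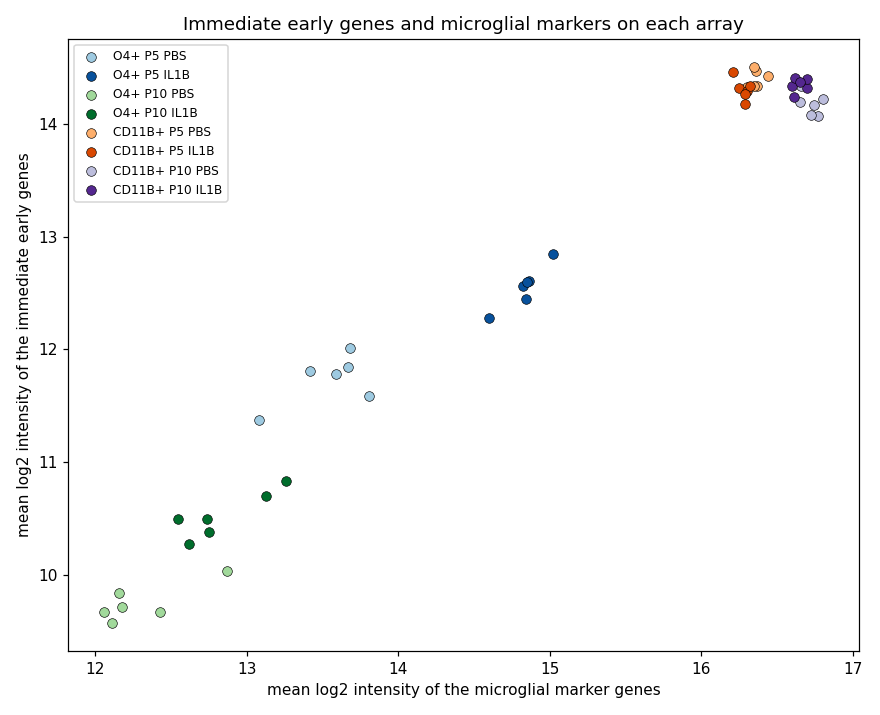
Mean log2 intensity of the 10 immediate early genes (vertical axis) and of the 10 microglial marker genes (horizontal axis) on each of the 48 arrays, in the 8 groups. The 4 O4+ groups have the same order on both axes by their means, although the arrays of P10 PBS (12.06 to 12.87) and P10 IL1B (12.55 to 13.26) overlap on the marker axis and not on the other, and the CD11B+ arrays gather at 16.21 to 16.80 on the marker axis.

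Other genes of the same pathways were described by fixed lists. In O4+ cells at P5, IL1B raised 5 of 7 other AP-1 and related bZIP factors (median 1.04), 14 of 20 other immediate early genes (median 0.78) and 3 of 11 MAP kinase phosphatases and ERK feedback inhibitors (median 0.29), and lowered none of them. Batf, a bZIP factor of immune cells, rose by 2.69 (SE 0.15, limma adjusted p = 1.19e-06). None of the 12 kinases and factors upstream, such as Elk1 and Creb1, was called by limma with the fold threshold (median -0.02; 4 had an unadjusted p below 0.05). At P10 the counts in O4+ cells were 3 of 7, 4 of 20 with 1 lower (Arc, a synaptic early gene, by 0.69), and 2 of 11 with 1 lower, and again 0 of 12 upstream (6 at an unadjusted p below 0.05). Of all probes, 3.44% rose and 1.49% fell with IL1B in O4+ cells at P5, and 2.49% rose and 1.41% fell at P10.

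In CD11B+ cells IL1B raised 3 of 7 AP-1 and bZIP factors at P5 (median 0.48), among them Fosl1 by 2.03 (adjusted p = 0.00332), which was well above background on 1 of 6 PBS arrays and on all 6 IL1B arrays, and 1 of 20 other immediate early genes, which was Arc at 2.39 (adjusted p = 9.51e-06). At P10 it raised Batf by 1.03 (adjusted p = 0.0137) and the ERK phosphatase Dusp5 by 0.83 (adjusted p = 0.0281), and no other gene of these 3 lists was called. Of all probes, 4.06% rose and 5.25% fell in CD11B+ cells at P5, and 1.09% rose and 1.08% fell at P10. With age in O4+ PBS cells 8.97% of all probes fell and 7.87% rose. There 4 of 7 AP-1 and bZIP factors, 15 of 20 other immediate early genes and 6 of 11 phosphatases and ERK inhibitors fell. The medians of these lists were -1.16, -1.11 and -0.85. Arc and the phosphatase gene Dusp10, chosen after their values were seen, went the other way with rises of 4.64 (adjusted p = 1.02e-08) and 1.35 (adjusted p = 1.40e-06).

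**Figure D5:**
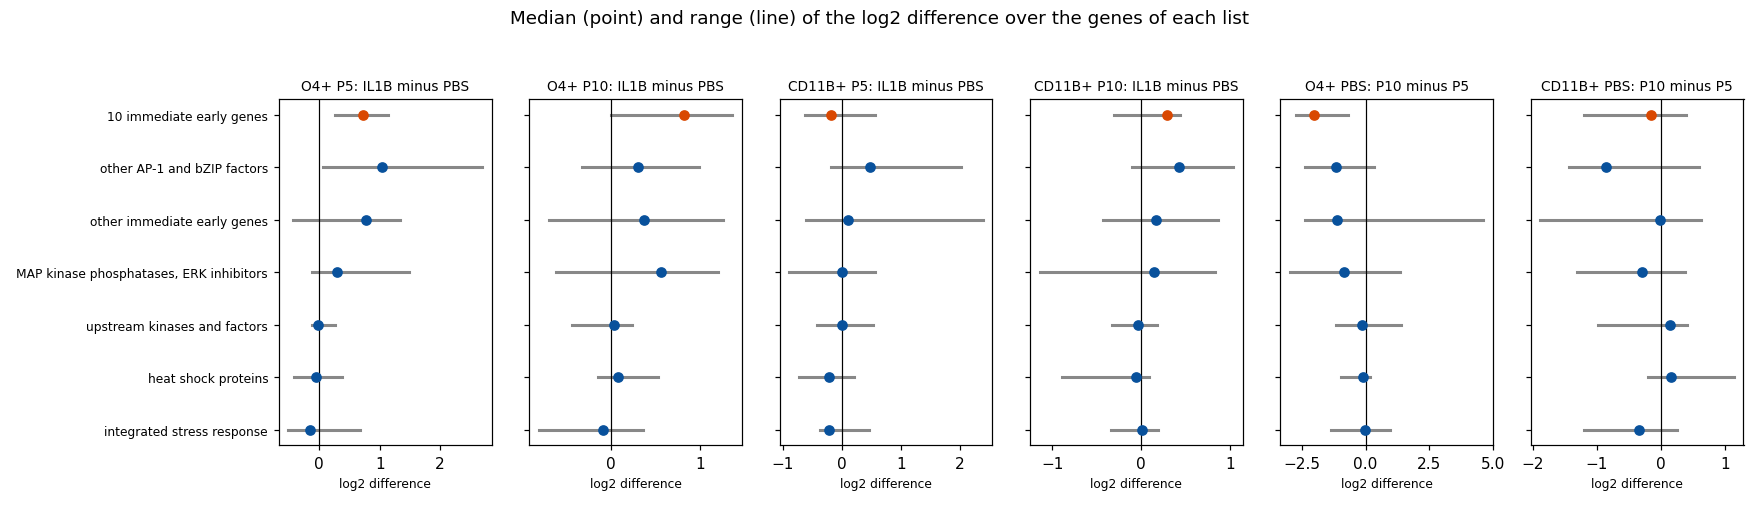
Median (point) and range (line) of the log2 difference over the genes of 7 lists, in 6 comparisons (panels, with horizontal scales that differ). By their medians, the members and the other AP-1 and immediate early genes lie to the right of 0 with IL1B in O4+ cells at P5 and to the left with age in O4+ cells, while the upstream kinases and factors and the heat shock proteins stay within 0.22 of 0; the ranges of the other lists with age reach to the right of 0, up to 4.64 for Arc.

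Stress genes bear on the handling of the cells and were counted apart. Of the 11 heat shock protein genes listed, 10 were on the array. None was called by limma with the fold threshold with IL1B in O4+ cells at P5 (median -0.06; 7 of 10 at an unadjusted p below 0.05) or at P10 (median 0.08; 2 of 10), and their mean log2 level there was 14.25 to 14.42 after IL1B and 14.26 to 14.44 after PBS at P5. Short of the fold threshold, Hsph1 (-0.42, limma adjusted p = 0.00015), Hsp90ab1 (-0.15, adjusted p = 0.00507) and Hspd1 (-0.12, adjusted p = 0.0339) were lower at P5. None was higher there at an adjusted p below 0.05. At P10 Hspb1 (0.53, adjusted p = 0.042) and Hspa1a (0.47, adjusted p = 0.0494) were higher, also short of it. In CD11B+ cells the small chaperone Hspb1 was lower after IL1B at P5 (-0.72, adjusted p = 9.54e-05) and at P10 (-0.89, adjusted p = 0.0225). With age, Hspa1a and Hspb1 fell in O4+ PBS cells (-0.96 and -0.84) and rose in CD11B+ PBS cells (1.13 and 1.14), genes chosen after their values were seen. Between the cell types, Hspa1a was lower in O4+ cells by 2.39 on the log2 scale at P5 and by 4.47 at P10, whereas the median over the 10 heat shock genes was -0.04 and -0.38.

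Genes listed as induced when microglia are isolated, of which 14 of 15 were on the array, were counted in the same way. With IL1B in O4+ cells 10 of 14 rose at P5 (median 0.71) and 4 of 14 at P10 (median 0.48), the chemokine genes Ccl3 and Ccl4 by 1.44 and 1.22 at P10 and the G protein regulator Rgs1 by 2.26 at P5. In CD11B+ cells 1 rose and 1 fell at P5, and none was called by limma at P10 (11 had an unadjusted p below 0.05). From P5 to P10, 11 of 14 fell in O4+ PBS cells (median -1.28), while in CD11B+ PBS cells 5 rose and 2 fell (median 0.52). Some of these genes are also in other lists: 4 among the other immediate early genes, 3 among the heat shock proteins and 1, Jund, among the AP-1 factors. Of all probes, 3.44% rose with IL1B in O4+ cells at P5, and 2.49% rose and 1.41% fell at P10. In CD11B+ cells 4.06% rose and 5.25% fell at P5. With age 8.97% fell in O4+ PBS cells, and in CD11B+ PBS cells 4.65% rose and 3.62% fell. In the list of the integrated stress response, the pathway of ATF4 to which Atf3 also belongs, 1 of 7 genes rose with IL1B in O4+ cells at P5 (Ppp1r15a) and 1 fell at P10 (Trib3, by 0.80), with medians of -0.16 and -0.08.

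The 10 genes also varied together between arrays of the same group. After each gene was centred on its group means over the 48 arrays, the correlation of a gene with the mean of the other 9 ran from 0.51 (Nr4a1) to 0.78 (Atf3). The closest pairs were Junb and Atf3 (Pearson r = 0.81) and Fos and Dusp1 (r = 0.76), and the least alike were Jun and Nr4a1 (r = -0.07). These are descriptions over arrays that share slide, dissociation and amplification, and genes are not replicates. Among 18566 probes above background on all 48 arrays, the named non-member genes most like the mean of the 10 in this sense were Plek (r = 0.824), Klhl6 (0.803), Bag3 (0.800), Dhrs3 (0.792) and Ctsc (0.792). Bag3 is a heat shock co-chaperone, and Plek and Ctsc are abundant in leukocytes. Over the 8 group means, the most alike were Cotl1 (r = 0.999), Msn, Lrrc33 and Gadd45b (0.998) and Ier3 (0.997). Gadd45b and Ier3 are themselves on the list of other immediate early genes, whereas Cotl1, Msn and Lrrc33 are on none of the lists. All members were higher in the CD11B+ than in the O4+ groups. A high r over these means therefore cannot be told apart from a difference between the cell types.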

How the data were processed

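RNA of 48 samples was hybridised to 1-colour Agilent mouse arrays (100 ng of total RNA per sample, amplified and labelled with Cy3), whose number limits the precision. The intensity values are the processed signals that the authors deposited as scanner output of Agilent Feature Extraction 10.7.3.1 (protocol GE1_107_Sep09), with background already handled by that program. The deposited matrix holds ratios of processed signal to the array median. Its log2 values differed from log2 of that ratio by at most 1.86e-05, after the median deviation of each array was removed. They were used as an alternative. Non-uniform spots (278 over all arrays) and control spots were left out. Log2 values were quantile normalised, over the 24 arrays of a cell type for treatment and age and over 48 arrays for cell types and levels, as the study's methods name quantile normalisation, and spots of a probe were averaged. Quantile normalisation gives all arrays the same distribution, so changes are relative to it. Groups came from the sample labels. Each comparison was fitted with limma 3.58.1 in R 4.3.3 on its own groups, with p-values adjusted by Benjamini-Hochberg over 55681 probes. Calls needed an adjusted p below 0.05 and group medians more than 1.5-fold apart, the thresholds of the methods, and for differences of responses the adjusted p alone. Counts of genes at an unadjusted p below 0.05 are given without the share of all probes and are descriptions only. The methods state independent biological replicates. Differences are IL1B minus PBS, P10 minus P5, and O4+ minus CD11B+.

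Probe positions are those of the scanner files (mm9). Gene names are those of the array design. The members and lists were chosen with earlier results of these data known. Genes of the other lists were named where they had the 2 largest rises or falls among called genes of an IL1B comparison, and like genes where they had the 5 highest Pearson r to the mean of the members. On simulated data with 6 arrays a group, modelled on O4+ cells at P5, 91% of probes changed by 1 on the log2 scale and 96% of those changed by 2 were recovered. Alternatives were 75th percentile scaling, normexp background (offset 50), the deposited matrix, only probes above background, the methods' equal-variance test, no fold threshold, all 4 groups of a fit, slide, scan day or replicate number as a block, and leaving out each array. The mean over several probes of a gene was not run, since each member has 1 probe.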

Additional observations from a re-analysis of the deposited data

Results flagged for a closer look

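Each gene was examined in each of the 8 groups of 6 arrays for a highest or lowest array far from the rest, and 2 of these 80 sets held such an array, where chance gives about 1 in 20. Fosb was low on the array of O4+ cells at P10 after PBS, replicate 1, at a log2 level of 7.84, with 8.33 on the next array. Dusp1 was high on the array of CD11B+ cells at P10 after PBS, replicate 1, at 13.53, with 13.30 on the next.

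Responses to IL1B that differed between groups by an interaction term (limma adjusted p below 0.05) are given as log2 differences. Between ages, the response of O4+ cells was lower at P10 for Dusp1 (-0.75). In CD11B+ cells it was higher at P10 for Fosb (0.84), Egr2 (0.93), Atf3 (0.71) and Nr4a1 (0.45) and lower for Dusp1 (-0.69). Between cell types at P5, the response was higher in O4+ cells for the AP-1 and related factors Fos (1.01), Fosb (1.07), Jun (0.74), Junb (0.91) and Atf3 (1.42). It was also higher there for Egr1 (0.85), Egr2 (1.13), Ier2 (0.74), Nr4a1 (0.79) and Dusp1 (0.57). At P10 it was higher in O4+ cells for Fos (0.95), Fosb (0.63), Egr1 (1.03), Atf3 (1.05) and Nr4a1 (0.51).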

How the results depend on the processing

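Over all comparisons, no called gene changed direction under any alternative, and the counts of genes called in O4+ cells after IL1B (5 to 9 at P5, 6 to 7 at P10), with age in O4+ cells (9 to 10) and between cell types (10) stayed within 1.5 times the value reported. No slide or scan day held PBS arrays of both ages, nor any slide those of both cell types at P10. Such a block cannot separate batch from the comparison, so unchanged counts under it do not speak to batch there. Without the fold threshold 6 genes were called with IL1B in CD11B+ cells at P5, 4 at P10, and 5 with age in CD11B+ cells. The share of all probes called at that setting is not given. Scaling to the 75th percentile called 2 genes with IL1B in CD11B+ cells at P5, where it also turned the median of the 10 genes from -0.18 to 0.04 while the median of all probes moved to 0.11. For the P10 minus P5 response in O4+ cells it called 2, as did normexp background and only probes above background, and slide as a block called 0. For that response in CD11B+ cells the deposited matrix called 3 and slide as a block 1. For the O4+ minus CD11B+ response at P10 the deposited matrix called 3. The causes were not tested, apart from the fold threshold, whose removal adds calls by construction. The mean over several probes of a gene was not run.

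With single arrays left out, the counts ranged from 5 to 8 (O4+ P5), 6 to 7 (O4+ P10), 1 to 2 (CD11B+ P5), 0 to 0 (CD11B+ P10), 10 to 10 (age in O4+ cells and both cell type comparisons), 2 to 3 (age in CD11B+ cells), 1 to 2 and 5 to 5 (P10 minus P5 response in O4+ and CD11B+ cells) and 9 to 10 and 5 to 6 (O4+ minus CD11B+ response at P5 and P10).

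O4+ and CD11B+ cells came from the same animals per the study, but no source says that equal replicate numbers mark the same pool. The lowest correlation of same-numbered arrays was below 0.1 in each pair of groups compared. Between the cell types, 4 of 6 (P5 PBS), 1 of 6 (P5 IL1B), 5 of 6 (P10 PBS) and 6 of 6 (P10 IL1B) O4+ arrays correlated best with the CD11B+ array of their own number, a hint from the data and not the design. With the replicate block 6 genes were called with IL1B in O4+ cells at P5 (Fosb at an adjusted p of 0.105) and 6 at P10 (Egr2 at 0.0513), and the block changed no other count, those between cell types included. The number of arrays limits the precision; all 10 genes were well above background on all 48.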
